A study of Mus musculus with 8 samples.

Results

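The 9 genes described here encode the transcriptional regulators and the enzymes that make palmitate from acetyl-CoA, and all 9 were among the 24888 gene symbols of the table. They were chosen by function: 2 transcription factors (Srebf1 and Mlxipl), fatty acid synthase (Fasn), both acetyl-CoA carboxylases (Acaca and Acacb) with a protein that promotes their polymerisation (Mid1ip1), both cytosolic sources of acetyl-CoA (Acly and Acss2) and a source of NADPH (Me1). Earlier results of these data were known at that choice, so counts of the 9 genes set beside shares of all genes are descriptive. The study sequenced RNA from 8 mouse libraries derived from E14, an established embryonic stem cell line. Expanded potential stem cells (EPSC) given T0901317 (T09) had their counterpart in untreated EPSC, and ESC given T09 in untreated ESC. T09 is a synthetic ligand that activates the liver X receptors (LXR), encoded by Nr1h2 and Nr1h3. Both treatments lasted 3 days, at a dose whose unit in the labels is unclear. The EPSC had been made from the ESC over 5 passages, with knockout serum replacement instead of FBS and with further kinase and tankyrase inhibitors. Both media contained LIF, CHIR99021 and PD0325901.

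The other 4 libraries came from blastoids, aggregates of EPSC that model the blastocyst. For day 2, EPSC were transfected with an siRNA against Nr1h2 (siNr1h2) or with siNT, taken as its control, seeded to aggregate and harvested 48 hours after transfection. On day 5, blastoids of Type I and of Type III were collected by hand. Their labels name T09-treated EPSC as the source without saying how long or at what dose. T09 is not among the listed components of the blastoid media. Each group was 1 library from 1 line, so no difference between 2 libraries could be set against the spread between cultures, and intervals cover counting error only.

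De novo lipogenesis starts when ATP-citrate lyase splits exported citrate into cytosolic acetyl-CoA. Acetyl-CoA carboxylase then makes malonyl-CoA, and fatty acid synthase extends the chain with NADPH as reductant. LXR switches on Srebf1, whose product SREBP-1c activates the enzyme genes; the counts do not separate it from SREBP-1a, the other product of this gene. Mlxipl encodes ChREBP, the factor that couples the same genes to glucose, and both routes are best known from liver. ACC1, the product of Acaca, supplies the synthase in the cytosol. ACC2, the product of Acacb, sits at the mitochondrion, where its malonyl-CoA restrains fatty acid import.

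Promoter sequence was available from RefSeq (GRCm38.p6) for all 9 genes, in 13 windows running from 250 bases before to 50 bases after an annotated start. Of the 3 Srebf1 windows, the most downstream is shown because it holds the classical LXR element of this gene, and the Fasn window because it holds a match to the same element. The element was searched on both strands as a pair of half-sites, GGGTTA and CGGTCA, with any 4 bases between them (DR4). Its letters were taken from the known Srebf1 element with these sequences in view, so the Srebf1 match was built in. Of 32851 promoter windows in the RefSeq table, 3 matched (0.00913%), those of Srebf1, Fasn and the cholesterol exporter gene Abca1. Capitals mark the match, which runs on the opposite strand from base -182 to -167 in Srebf1 and from -225 to -210 in Fasn, counted from the start.
Srebf1, chr11:60210422-60210721, minus strand: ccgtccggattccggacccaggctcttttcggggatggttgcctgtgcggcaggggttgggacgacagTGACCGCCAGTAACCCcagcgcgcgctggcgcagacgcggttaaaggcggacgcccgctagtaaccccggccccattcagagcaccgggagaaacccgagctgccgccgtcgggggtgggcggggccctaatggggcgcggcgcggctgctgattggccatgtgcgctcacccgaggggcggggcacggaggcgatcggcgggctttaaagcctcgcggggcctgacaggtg
Fasn, chr11:120824498-120824797, minus strand: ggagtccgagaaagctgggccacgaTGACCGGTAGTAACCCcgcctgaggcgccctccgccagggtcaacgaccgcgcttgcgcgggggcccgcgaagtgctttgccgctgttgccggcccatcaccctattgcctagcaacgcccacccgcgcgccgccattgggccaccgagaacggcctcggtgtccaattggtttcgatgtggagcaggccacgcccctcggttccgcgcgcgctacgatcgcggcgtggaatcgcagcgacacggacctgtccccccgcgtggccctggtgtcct

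The window of the upstream Me1 start is shown because Me1 had the highest ratio of the 9 genes between blastoids and stem cells. Capitals mark a match to the antioxidant response element TGACNNNGC, the binding core of NRF2, from base -6 to 3. That motif was present in 12.4% of all windows. No match to the LXR element was found in either Me1 window.
Me1, chr9:86695865-86696164, minus strand: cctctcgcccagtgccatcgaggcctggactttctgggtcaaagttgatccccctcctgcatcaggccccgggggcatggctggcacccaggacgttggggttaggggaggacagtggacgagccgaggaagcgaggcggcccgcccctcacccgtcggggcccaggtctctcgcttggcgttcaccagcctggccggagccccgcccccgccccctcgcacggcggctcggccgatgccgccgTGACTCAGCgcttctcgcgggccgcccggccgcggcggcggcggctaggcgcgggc

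**Figure D1:**
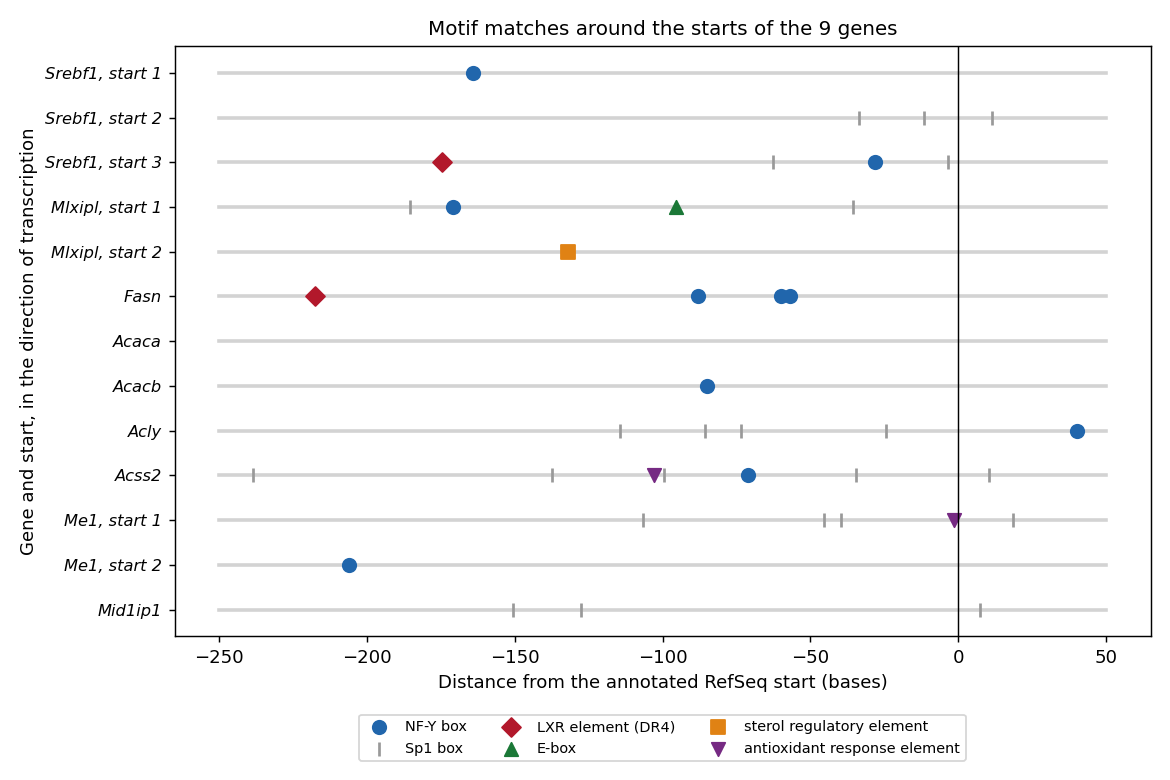
Positions of 6 motifs in the 13 RefSeq promoter windows of the 9 genes; the horizontal axis is the distance in bases from each annotated start, and each symbol is a match on either strand. The LXR element appears in 1 Srebf1 window and in the Fasn window, and the Acaca window holds none of the 6 motifs.

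The other motifs searched were the sterol regulatory element TCACNCCAC (in 1.24% of all windows), the E-box CACGTG (7.15%), the NF-Y box CCAAT (37.4%) and the Sp1 box GGGCGG (35.7%), on both strands. The E-box and the sterol element each matched in 1 Mlxipl window. A pair of NF-Y matches in Fasn overlap each other on opposite strands, and an antioxidant element match in Acss2 overlaps an Sp1 box. The strict consensus of AGGTCA repeated after any 4 bases (0.0152% of windows) was in no window of the 9 genes. These matches describe letters only.

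Total counts ran from 24666260 to 40781415 per library, and levels are in CPM after TMM scaling, the depth correction of edgeR. The upper limit for a count of 0, set at 3 counts, is between 0.0741 and 0.114 CPM. The summed level of 7 pluripotency genes was 4248 to 6116 CPM in the stem cell libraries, 2056 to 2129 on day 2, and 493 in Type I against 1009 in Type III. The summed level of 8 primitive endoderm genes was 5518 CPM in Type I and 4395 in Type III, against 68.4 to 260 in the stem cells, and that of 8 trophectoderm genes was 1356 and 1498, against 96.6 to 118. Most of the trophectoderm sum came from the keratin genes Krt8 (717 CPM in Type I and 754 in Type III) and Krt18 (553 and 648). Other genes of that list did not share 1 direction. Cdx2 was at 48.2 CPM in Type I, 30.9 in Type III and 0.0247 in T09-treated EPSC, and Tfap2c at 19.5, 28.1 and 104. The day 5 libraries thus held markers of more than 1 lineage, and in bulk RNA fewer cells of a type and less RNA per cell cannot be told apart. Of 7 hepatocyte and adipocyte genes, Alb and Cfd were at 0 in all 8 libraries, whereas Ttr reached 176 CPM in Type I and 174 in Type III. Apoa1 of that list was at 23.4 CPM in Type I and 28.2 in Type III. Which cells held Ttr and Apoa1 was not tested. The 6 fibroblast genes summed to at most 9.52 CPM.

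Levels differed widely among the 9 genes. Divided by exon length, so that genes can be compared, Acly had the highest level of the 9 in the 6 stem cell and day 2 libraries (102 to 180 CPM per kilobase) and Fasn the next (56.6 to 150). In both day 5 libraries Me1 stood first, at 123 CPM per kilobase in Type I and 102 in Type III. Srebf1 spanned 15.6 to 67.3 CPM per kilobase and Mlxipl 0.462 to 3.97, the lowest level of the 9 in all libraries but ESC, where Mid1ip1 was lower. Acacb came close to it in the day 5 blastoids, at 0.517 CPM per kilobase in Type I and 0.865 in Type III. The ratio of Srebf1 to Mlxipl per kilobase was 91.4 in T09-treated EPSC (75.6 to 112), 5.68 in ESC (5.16 to 6.26) and 143 in Type I blastoids (111 to 187).

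**Figure D2:**
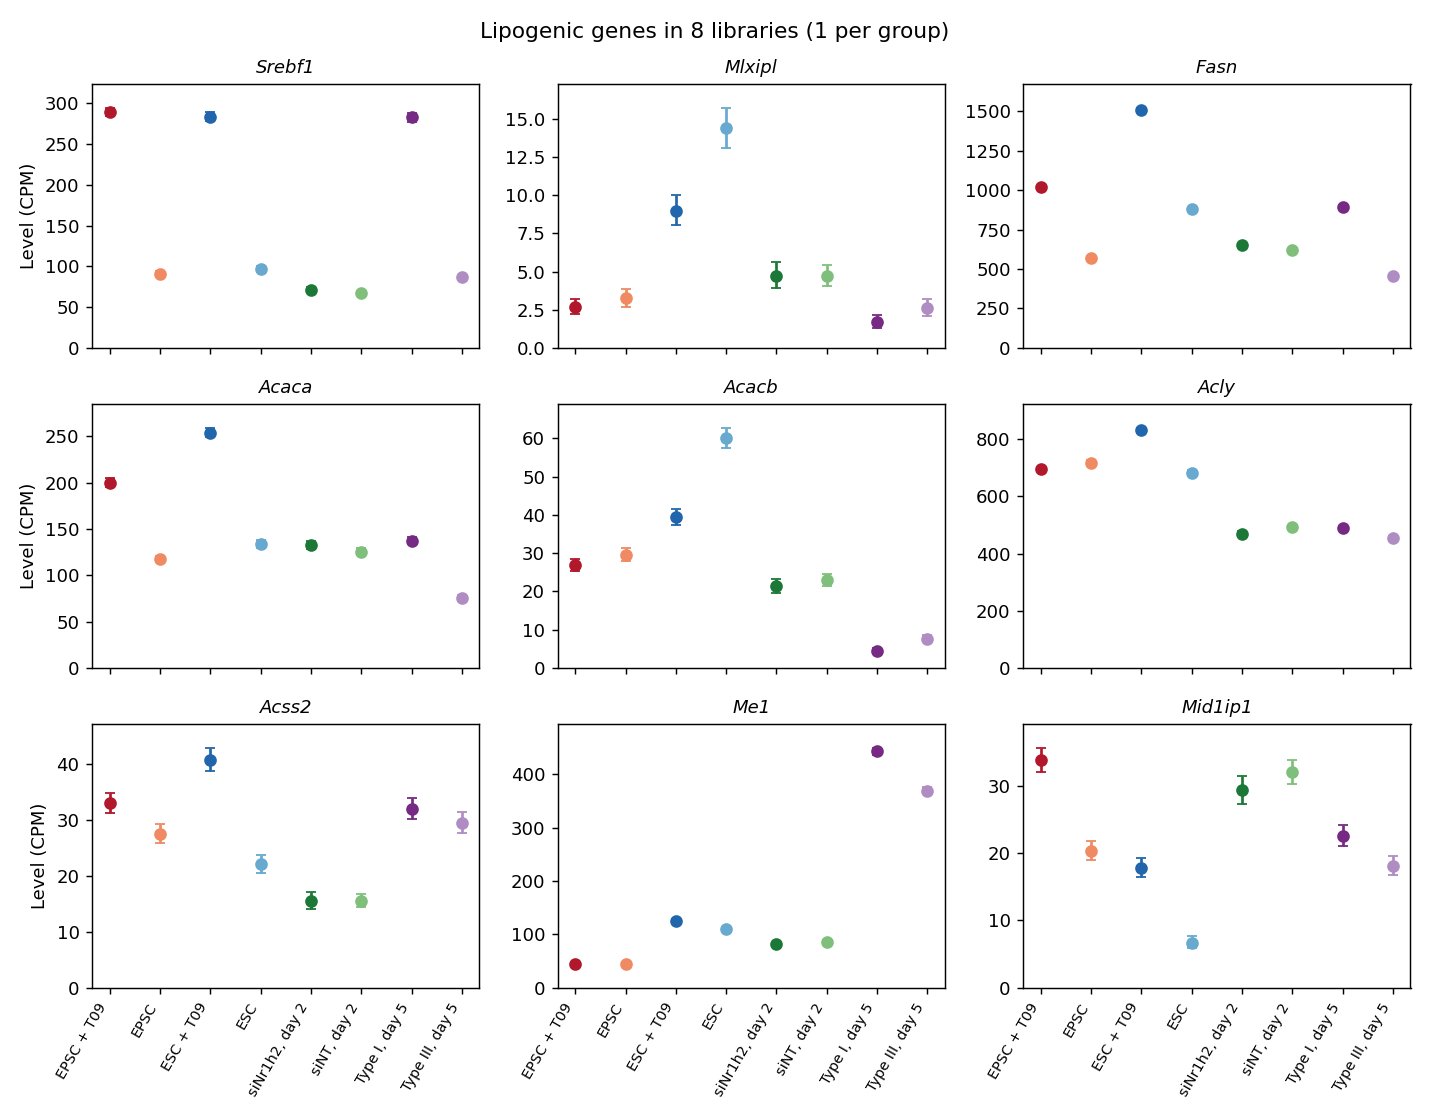
Levels of the 9 genes in CPM (vertical axes, each from 0) in the 8 libraries, with 95% counting intervals as bars. Srebf1 is at 283 to 289 CPM in both T09-treated stem cell libraries and in Type I, and at 67.1 to 96.9 CPM in the other 5, while Me1 stands out in both day 5 libraries.

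Srebf1 fell into a high and a low class of libraries. It stood at 289 CPM in T09-treated EPSC, 90.9 in EPSC, 284 in T09-treated ESC, 96.9 in ESC, 71.3 in siNr1h2, 67.1 in siNT, 283 in Type I and 86.8 in Type III. The T09-treated libraries and Type I were the high ones, and their counting intervals overlapped. Type III lay just under untreated EPSC.

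Mlxipl, the other regulator, had its own order. Its levels were 2.67 CPM in T09-treated EPSC, 3.25 in EPSC, 8.98 in T09-treated ESC, 14.4 in ESC, 4.69 in siNr1h2, 4.70 in siNT, 1.67 in Type I and 2.62 in Type III, on 60 to 477 counts. Both ESC libraries were above all others, and the counting intervals of both EPSC and Type III overlapped.

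Fasn, the synthase itself, had 1018 CPM in T09-treated EPSC, 569 in EPSC, 1509 in T09-treated ESC, 878 in ESC, 650 in siNr1h2, 619 in siNT, 894 in Type I and 458 in Type III. Acaca had 200 CPM in T09-treated EPSC, 117 in EPSC, 254 in T09-treated ESC, 134 in ESC, 133 in siNr1h2, 125 in siNT, 137 in Type I and 75.4 in Type III. For both genes T09-treated ESC was highest and Type III lowest. Acacb had 26.8 CPM in T09-treated EPSC, 29.6 in EPSC, 39.4 in T09-treated ESC, 60.1 in ESC, 21.4 in siNr1h2, 22.9 in siNT, 4.54 in Type I and 7.60 in Type III. Untreated ESC was highest and Type I lowest, a 13.2-fold range. Acaca exceeded Acacb in every library. The ratio per kilobase was 6.89 in T09-treated EPSC and 3.66 in EPSC, 5.96 in T09-treated ESC and 2.05 in ESC, 5.73 in siNr1h2 and 5.06 in siNT, and 28 in Type I (23.9 to 32.9) against 9.16 in Type III (8.04 to 10.5).

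Acly, the main source of acetyl-CoA, moved least, with 695 CPM in T09-treated EPSC, 717 in EPSC, 831 in T09-treated ESC, 683 in ESC, 470 in siNr1h2, 494 in siNT, 489 in Type I and 453 in Type III. Its 4 blastoid libraries all lay below its 4 stem cell libraries, as did those of Acacb, and 18.8% of 13854 genes had that arrangement. None of the 9 had all blastoids above all stem cells, against 16.6% of genes (35.4% in either direction). Acss2, which makes acetyl-CoA from acetate, had 33.0 CPM in T09-treated EPSC, 27.5 in EPSC, 40.7 in T09-treated ESC, 22.1 in ESC, 15.5 in siNr1h2, 15.5 in siNT, 32.0 in Type I and 29.5 in Type III. It was lowest in the day 2 aggregates. Of the Acss2 exons, 3.98% overlap an antisense gene.

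Me1, cytosolic malic enzyme, had 44.3 CPM in T09-treated EPSC, 44.8 in EPSC, 125 in T09-treated ESC, 110 in ESC, 82.8 in siNr1h2, 86.1 in siNT, 443 in Type I and 369 in Type III. The day 5 blastoids were above the other 6 libraries, an arrangement of 26.2% of 13854 genes, and both EPSC libraries were lowest. Mlxipl and Acacb were below the other 6 there, as were 24.9% of genes. Mid1ip1 had 33.8 CPM in T09-treated EPSC, 20.3 in EPSC, 17.8 in T09-treated ESC, 6.72 in ESC, 29.3 in siNr1h2, 32.0 in siNT, 22.6 in Type I and 18.1 in Type III. It was lowest in ESC and highest in T09-treated EPSC. In the GENCODE annotation 26.9% of the Mid1ip1 exons overlap an antisense gene, and the strand setting of the counting is not given in the sources used here, so its counts may include that gene.

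T09 was given to ask what LXR activation does in both stem cell states. Srebf1, Fasn and Acaca rose, with log2 changes of 1.61 (SE 0.104), 0.81 (SE 0.108) and 0.85 (SE 0.104) over the 4 stem cell libraries. The other 6 genes did not pass. In an edgeR quasi-likelihood model with terms for state and for T09, with 1 residual degree of freedom, the Benjamini-Hochberg adjusted p over 14477 genes was 0.000194 for Srebf1, 0.0291 for Fasn and 0.0203 for Acaca, each higher with T09 in both states. Of the 9 genes 3 passed, all higher, where 0.104% of all genes passed, 0.0898% higher and 0.0138% lower. The states stood in for replicates, so the residual also holds any difference of T09 response between them. The quasi-likelihood test also draws on the variance of all genes, so its p-values do not rest on that 1 degree of freedom alone. These p-values do not cover the spread between separately treated cultures. Mid1ip1 had a log2 change of 1.05 (SE 0.183) and an adjusted p of 0.14 in edgeR, Acss2 had 0.57 (adjusted p 0.55), Acly 0.12 (0.934) and Me1 0.08 (0.963). Acacb and Mlxipl had changes below 0, at -0.38 (edgeR adjusted p 0.775) and -0.50 (0.801). Mid1ip1 passed without the filter on low counts (edgeR adjusted p 0.0149) and in DESeq2 (0.00607), but not in limma-voom (0.154). The primitive endoderm sum was lower with T09, at 140 CPM in T09-treated EPSC and 260 in EPSC, and at 68.4 in T09-treated ESC and 95.2 in ESC. Most of that sum was Lrp2, at 113 CPM in T09-treated EPSC and 217 in EPSC, and 59.5 in T09-treated ESC and 86.1 in ESC. The other members had lower levels and were not all lower with T09. Gata4 was at 5.52 CPM in T09-treated ESC and 2.77 in ESC. The neural sum was 202 CPM in T09-treated EPSC and 188 in EPSC, and 86.9 in T09-treated ESC and 134 in ESC. Most of the neural sum was Tubb3, at 156 CPM in T09-treated EPSC and 147 in EPSC, and 69.5 in T09-treated ESC and 118 in ESC. Pax6 and Neurod1 were also lower with T09 in ESC, at far lower levels. Sox1 was higher there, at 16.9 CPM in T09-treated ESC and 14.3 in ESC. The part of these markers in the T09 result was not tested.

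Between single libraries, a difference was called at a ratio of 2-fold or, as a second threshold, 1.5-fold, if the 95% exact interval excluded 1 and at least 1 library had 20 counts. In EPSC, 1 of the 9 genes was at least 2-fold higher with T09 (Srebf1, log2 1.67), against 0.895% of 13632 genes higher. At 1.5-fold 4 were higher, Srebf1, Fasn (0.84), Acaca (0.77) and Mid1ip1 (0.73), against 2.46% of genes higher and 10.1% in either direction. In ESC, Srebf1 (1.55) and Mid1ip1 (1.40) were at least 2-fold higher, against 1.39% of 13412 genes. At 1.5-fold 5 were higher, with Acaca (0.93), Acss2 (0.88) and Fasn (0.78) added, against 4.03%, and 2 were lower, Mlxipl (-0.67) and Acacb (-0.61), against 5.61%, so 7 differed where 9.64% of genes did. The median log2 ratio of the 9 was 0.26 in EPSC, where all tested genes had -0.0013, and 0.78 in ESC, where all had 0.0070.

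The T09 ratio differed between the states beyond counting error for 8 of the 9 genes, as it did for 54.3% of 12308 genes, and no test was possible. The EPSC minus ESC difference on the log2 scale was 0.12 for Srebf1 (0.04 to 0.20), 0.06 for Fasn (0.03 to 0.09) and -0.15 for Acaca (-0.23 to -0.08). It was -0.66 for Mid1ip1 (-0.92 to -0.41), -0.62 for Acss2 (-0.79 to -0.44), -0.33 for Acly (-0.36 to -0.29) and -0.20 for Me1 (-0.31 to -0.08). Acacb had 0.47 (0.31 to 0.62), and the Mlxipl interval reached 0 (-0.03 to 0.82). Thus Srebf1 and Fasn had close to the same ratio in both states, whereas Mid1ip1 and Acss2 had the higher ratio in the ESC pair.

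**Figure D3:**
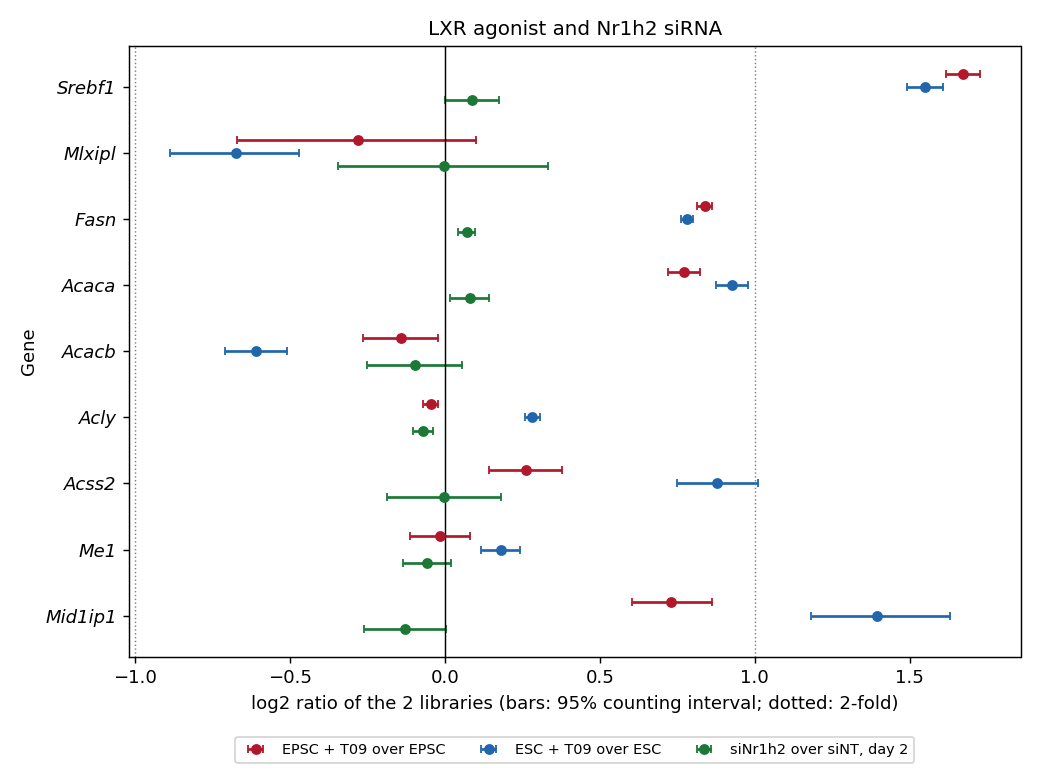
Log2 ratios of the 9 genes (horizontal axis) for T09-treated over untreated EPSC, T09-treated over untreated ESC and siNr1h2 over siNT day 2 blastoids, with 95% counting intervals. Srebf1 is at 1.67 and 1.55 for T09 and all 9 genes lie between -0.13 and 0.09 for the siRNA.

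The siRNA library asked the converse, what less Nr1h2, the gene of LXR beta, does in day 2 blastoids. Nr1h2 was at 37.7 CPM in siNr1h2 and 53.9 in siNT, or 70.1% of the siNT level (64.9 to 75.6%). Nr1h3, the gene of LXR alpha, was at 1.22 CPM in siNr1h2 and 0.915 in siNT. None of the 9 lipogenic genes differed at 1.5-fold, against 7.42% of 14127 genes. Srebf1 had a log2 ratio of 0.09 (0.00186 to 0.17), Fasn 0.07 (0.04 to 0.10) and Acaca 0.08 (0.02 to 0.14), all slightly above 0. The ratio furthest from 0 was that of Mid1ip1, -0.13 (-0.26 to 0.0025). Acly had -0.07 (-0.10 to -0.04), as far from 0 as Fasn but below it. The ratios of Mlxipl (-0.0027), Acacb (-0.10), Acss2 (-0.0024) and Me1 (-0.06) had intervals that reached 0. Whether separate cultures vary by as much was not measured.

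The state comparison set EPSC against ESC. Mid1ip1 rose, and Mlxipl, Me1, Acacb and Fasn fell, in EPSC relative to ESC, while Srebf1 did not pass. The log2 changes over 4 libraries were 1.23 (SE 0.184) for Mid1ip1, -1.96 (SE 0.220) for Mlxipl, -1.41 (SE 0.113) for Me1, -0.80 (SE 0.151) for Acacb and -0.61 (SE 0.107) for Fasn. In edgeR's quasi-likelihood test their Benjamini-Hochberg adjusted p values were 0.00106, 0.0002, 2.71e-05, 0.00377 and 0.00267, with the same sign in the treated and the untreated pair. Of the 9 genes 5 passed, 1 higher and 4 lower, where 28.8% of all genes passed, 14.3% higher and 14.5% lower. Srebf1 had a change of -0.04 (SE 0.102, edgeR adjusted p 0.791), Acss2 -0.01 (0.965), Acly -0.11 (0.545) and Acaca -0.28 (0.0709). Each state was a single culture line, so these p-values do not cover the spread between separately derived EPSC. EPSC and ESC were also grown in different media, so state and medium cannot be told apart here. The 4 neural marker genes also differed, with sums of 188 to 202 CPM in the EPSC libraries and 86.9 to 134 in the ESC libraries. The primitive endoderm sum was 260 CPM in EPSC and 95.2 in ESC, and 140 in T09-treated EPSC and 68.4 in T09-treated ESC. Most of it was again Lrp2, at 217 CPM in EPSC and 86.1 in ESC, and 113 in T09-treated EPSC and 59.5 in T09-treated ESC. The pluripotency sum was 4248 CPM in EPSC and 6116 in ESC, and 4859 in T09-treated EPSC and 6006 in T09-treated ESC. Their part in the result was not tested.

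Within the pairs, Mid1ip1 was 20.3 CPM in EPSC and 6.72 in ESC (log2 1.59), and 33.8 in T09-treated EPSC and 17.8 in T09-treated ESC (0.93). Me1 was 44.8 CPM in EPSC and 110 in ESC (-1.30), and 44.3 in T09-treated EPSC and 125 in T09-treated ESC (-1.50). Both genes therefore differed between the EPSC and ESC libraries with and without T09. Of the 9 genes 4 differed at least 2-fold between the untreated libraries, against 17.6% of 13847 genes, and 2 between the treated ones (18.1% of 13712), Mlxipl and Me1. Acly and Acss2 changed sides, with log2 ratios of 0.07 and 0.31 in the untreated pair and -0.26 and -0.30 in the treated pair.

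**Figure D4:**
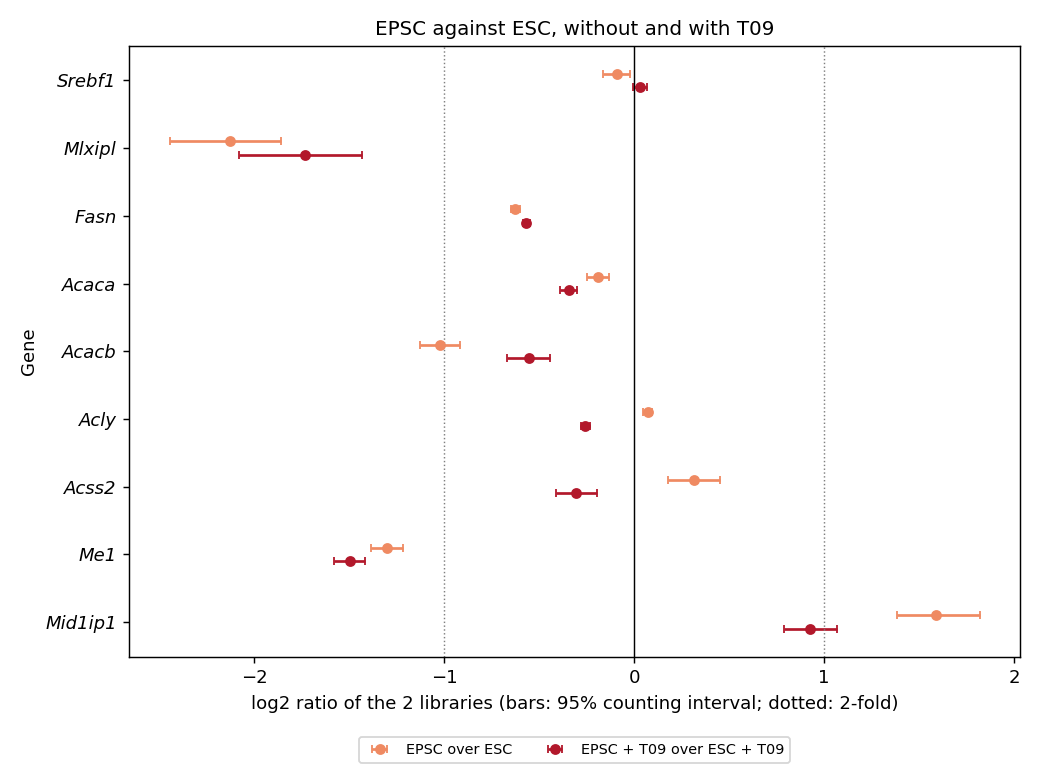
Log2 ratios of the 9 genes (horizontal axis) for EPSC over ESC without and with T09, with 95% counting intervals. Mid1ip1 is to the right (1.59 and 0.93), Mlxipl and Me1 to the left in both pairs, and Srebf1 is near 0 in both.

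The day 2 control blastoids were set against EPSC, from which they were grown. None of the 9 genes differed 2-fold, against 25.8% of 14496 genes. At 1.5-fold 2 were higher, Me1 (86.1 CPM in siNT and 44.8 in EPSC, log2 0.94) and Mid1ip1 (0.65), against 20.3% of genes, and 1 was lower, Acss2 (15.5 CPM in siNT and 27.5 in EPSC, -0.82), against 19.8%. Srebf1 had a ratio of -0.44, Acly -0.54 and Acacb -0.37, while Mlxipl had 0.53, Fasn 0.12 and Acaca 0.10. The primitive endoderm sum was 2789 CPM in siNT and 260 in EPSC, and the trophectoderm sum 235 in siNT and 96.6 in EPSC. The pluripotency sum was 2129 CPM in siNT and 4248 in EPSC, and the neural sum 20.3 in siNT and 188 in EPSC. The part of these markers in these ratios was not tested.

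The hand-picked day 5 blastoids compared Type I with Type III. Srebf1 was at 283 CPM in Type I and 86.8 in Type III, a log2 ratio of 1.71 (1.65 to 1.77). Fasn was at 894 CPM in Type I and 458 in Type III (0.96), and Acaca at 137 CPM in Type I and 75.4 in Type III (0.87). Acacb had the opposite direction, with 4.54 CPM in Type I and 7.60 in Type III (-0.74, interval -1.04 to -0.45), and so did Mlxipl (-0.63, interval -1.15 to -0.15). At 2-fold 1 of the 9 was higher, Srebf1, against 1.93% of 13907 genes higher and 7.68% in either direction, and with RLE size factors Fasn passed as well. At 1.5-fold 3 were higher (5.99% of genes) and 2 lower (10.6%), so 5 differed where 16.6% of genes did. Acly (0.11), Acss2 (0.12), Me1 (0.26) and Mid1ip1 (0.32) stayed under 1.5-fold. The pluripotency and primitive endoderm sums given above also differed between these libraries, and their part in the result was not tested.

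Against T09-treated EPSC, their labelled source, both types had far more Me1, 443 CPM in Type I and 369 in Type III, with 44.3 in T09-treated EPSC. The log2 ratios were 3.32 (3.25 to 3.39) and 3.06 (2.99 to 3.13). Acacb was lower in both, at -2.55 and -1.81. Srebf1 parted the types, at -0.03 in Type I (-0.07 to 0.0059) and -1.74 in Type III (-1.80 to -1.68). In Type I 2 of the 9 genes differed 2-fold, Me1 higher and Acacb lower, against 40.8% of 14378 genes. In Type III 5 of the 9 did, against 37.7% of 14395. They were Me1, higher, and Srebf1, Fasn (-1.15), Acaca (-1.41) and Acacb, lower. These counts of the 9 genes are descriptive only. Mid1ip1 was at -0.58 in Type I and -0.90 in Type III, and Acly at -0.51 in Type I and -0.62 in Type III. Mlxipl was at -0.66 in Type I (-1.15 to -0.21) and -0.03 in Type III (-0.45 to 0.39), and Acss2 at -0.04 in Type I and -0.16 in Type III. In Type I, Fasn was at -0.19 and Acaca at -0.54. Type I and Type III share the T09-treated EPSC library in these ratios. The primitive endoderm and trophectoderm sums were also higher, and the pluripotency and neural sums lower, in both blastoid types than in T09-treated EPSC. The part of these markers in the Me1 level was not tested.

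**Figure D5:**
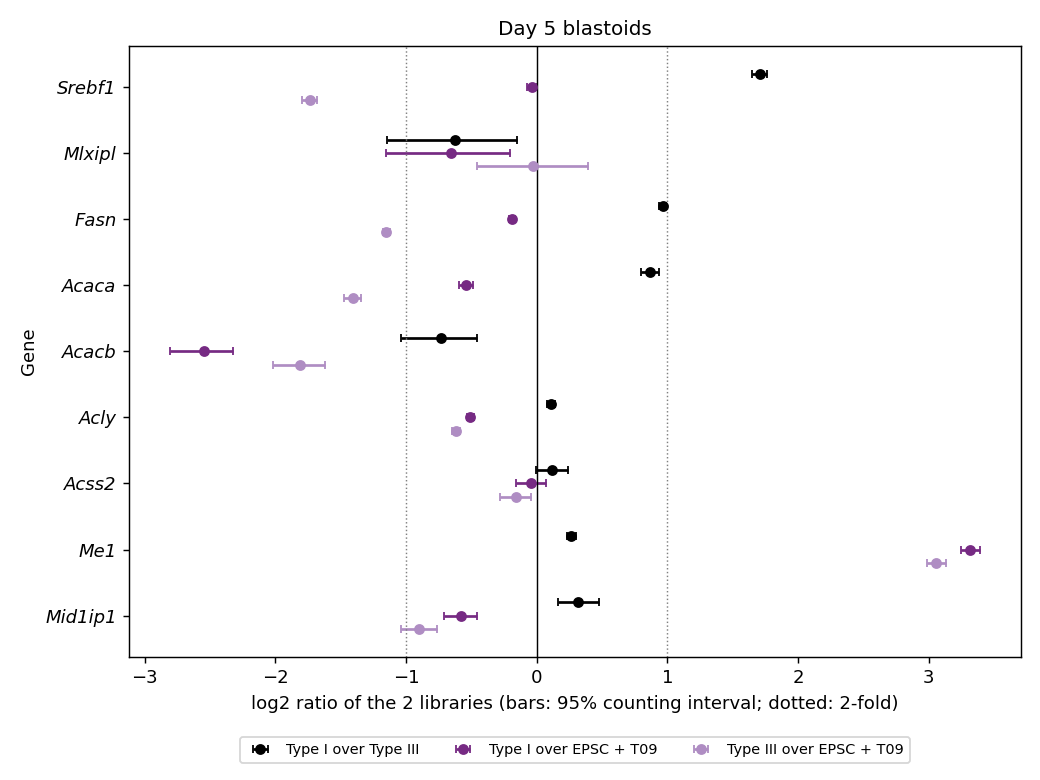
Log2 ratios of the 9 genes (horizontal axis) for Type I over Type III blastoids and for each over T09-treated EPSC, with 95% counting intervals. Srebf1 is at -0.03 for Type I and -1.74 for Type III against T09-treated EPSC, and Me1 is above 3 for both.

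Likeness was measured as the mean absolute difference of log2 level over the 8 libraries, each gene centred on its own mean, among 11117 genes with at least 100 counts on average. The libraries share 1 line, and a low value describes these libraries only. Nearest to Srebf1 were the desaturase genes Scd2 (0.156) and Scd1 (0.285), the phospholipid remodelling gene Lpcat3 (0.383), the desaturase gene Fads2 (0.398) and the phospholipid transfer protein gene Pltp (0.439). Scd1 and Scd2 are closely related paralogues, so the division of reads between them is uncertain. Fasn and Acaca were each other's nearest gene (0.171). Next to Fasn came Rnf145 (0.211), Wiz (0.231), Fhl3 (0.232) and Frrs1 (0.238), and next to Acaca came Frrs1 (0.193), Kif7 (0.227), Rnf145 (0.228) and Mypop (0.232).

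None of 17 tested regulators of lipogenic transcription passed the edgeR test for T09, where 0.104% of all genes did. For the EPSC state 2 rose and 1 fell, where 14.3% of all genes were higher and 14.5% lower. Rxra, the partner of LXR, fell by 1.27 on the log2 scale, and Ppargc1b (0.64) and Mbtps1 (0.42), the site-1 protease gene of SREBP processing, rose. Insig1, which retains SREBP in the endoplasmic reticulum, was at 636 CPM in Type I, 423 in Type III and 104 in T09-treated EPSC. Pparg, the adipogenic factor, was at 1.81 CPM in Type I and 6.02 in Type III. Thrsp, the paralogue of Mid1ip1, had 0 counts in Type I against 138 in T09-treated EPSC, at least 40.8-fold lower. Srebf2 stayed between 224 and 386 CPM over the 8 libraries. In Type I over T09-treated EPSC 3 of 18 regulators were at least 2-fold higher and 2 lower, where 22.7% of genes were higher and 18.1% lower. Over Type III 0 of 17 were higher and 1 lower, where 5.75% of genes were lower.

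The other suppliers of acetyl-CoA, citrate and NADPH had 0 of 15 genes past the T09 test (0.104% of all genes). For the state, 2 rose and 4 fell in EPSC, against 14.3% of all genes higher and 14.5% lower. Those that rose were the acetyl-CoA synthetase gene Acss1 (1.11) and the transhydrogenase gene Nnt (0.53). Among those that fell were Pgd of the pentose phosphate pathway (-0.57) and the pyruvate carboxylase gene Pcx (-0.55). In day 5 blastoids the mitochondrial malic enzyme gene Me2 was at 330 CPM in Type I and 323 in Type III, with 107 in T09-treated EPSC. Acss1 was at 2.98 CPM in Type I and 5.51 in Type III, with 43.2 in T09-treated EPSC. The list's median log2 ratio was -0.56 in Type I and -0.58 in Type III over T09-treated EPSC, where all genes had -0.025 and 0.0015.

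Of 9 lipogenic targets next in the pathway, 4 rose with T09 and none fell in the edgeR fit, where 0.0898% of all genes rose and 0.0138% fell. They were Scd1 (2.03), Scd2 (1.53), Lpcat3 (0.96) and the activating enzyme gene Acsl3 (0.82). For the state 2 of the 9 fell in EPSC, Lpcat3 (-0.62) and Scd2 (-0.41), against 14.5% of all genes. In Type I over Type III 3 were at least 2-fold higher and none lower, against 1.93% of all genes higher and 5.75% lower. They were Scd2 (1.58), Scd1 (1.27) and Lpcat3 (1.15). Under the siRNA 0 of 9 differed at 1.5-fold, against 7.42% of all genes. The carbohydrate-responsive targets of ChREBP had 0 of 7 genes past the T09 test (0.104% of all genes). For the state 1 rose in EPSC, Txnip (1.30), and 2 fell, the pyruvate kinase gene Pklr (-2.50) and the lipin gene Lpin1 (-1.05), against 14.3% of all genes higher and 14.5% lower. In Type I over T09-treated EPSC 4 of 7 were at least 2-fold higher and 0 lower, against 22.7% of all genes higher and 18.1% lower. Among the 4 were Pklr (4.29 CPM in Type I and 0.445 in T09-treated EPSC) and the ketohexokinase gene Khk (8.50 CPM in Type I and 1.68 in T09-treated EPSC). Pklr had only 18 counts in T09-treated EPSC. Both were also at least 2-fold higher in Type III, Pklr at 3.86 CPM and Khk at 12.2. In Type III 2 of 7 were at least 2-fold higher and 0 lower, where 37.7% of all genes differed in either direction. Txnip went the other way at 1.5-fold in both types, at 151 CPM in Type I (-0.76), 147 in Type III (-0.80) and 256 in T09-treated EPSC.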

How the data were processed

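The authors deposited raw counts per gene symbol, 8 columns of whole numbers matched to samples by title. Per the submitters' processing notes STAR, Cuffnorm, HTSeq and mm9 were used. Versions, annotation and strand setting are not given in the sources used here. Per the labels' protocols, libraries were made from total RNA with a directional kit.

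Counts were scaled with TMM factors (edgeR 4.0.16, R 4.3.3). Ratios of 2 libraries used a prior count of 2 and 95% exact conditional (Clopper-Pearson) intervals. They cover counting error only, because each group had 1 library. Without molecular identifiers copies of 1 molecule may be counted more than once, so the intervals may be too narrow for counting error as well. The 4 stem cell libraries were fitted in an edgeR quasi-likelihood model with a term for state and a term for T09, after filterByExpr, with a Benjamini-Hochberg threshold of 0.05, and each SE is the change divided by the root of F. Both procedures were run on simulated counts. Ratios were tried with counting noise alone and changes above the call thresholds, and the fit with its own estimated variation. Neither run bears on the spread between separate cultures. Alternatives were RLE factors, library totals, other count minima and prior counts, an assumed biological variation of 0.2, no filter, DESeq2 1.42.0 and limma-voom (limma 3.58.1). Exon lengths came from GENCODE M21 (GRCm38), a build later than mm9, and promoters from RefSeq.

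By the naming rule all 9 genes are reported in each comparison. From 6 lists of other pathway genes, members that passed were named, at most 4 per list and comparison, and Srebf2 was chosen after its values were seen. The genes and lists were chosen with earlier results of these data known. Hsd17b8 of the mitochondrial list was not analysed here.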

Additional observations from a re-analysis of the deposited data

Results flagged for a closer look

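For 2 genes the direction of a ratio turned between conditions while each counting interval stayed clear of no difference. The difference was not tested, since no library had a replicate. Acly was lower in T09-treated EPSC than in EPSC (695 CPM in T09-treated EPSC and 717 in EPSC, log2 -0.05) and higher in T09-treated ESC than in ESC (831 CPM in T09-treated ESC and 683 in ESC, log2 0.28), a gap of -0.33. The same 4 values give the other Acly entry, EPSC over ESC, at -0.26 with T09 and 0.07 without, again -0.33. Acss2 was lower in T09-treated EPSC than in T09-treated ESC (33.0 CPM in T09-treated EPSC and 40.7 in T09-treated ESC, -0.30) and higher in EPSC than in ESC (27.5 CPM in EPSC and 22.1 in ESC, 0.31), a gap of -0.62.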

How the results depend on the processing

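Under the alternatives run, 133 counts kept within 1.5 times of the main count and 5 did not. With RLE size factors 2 rather than 1 differed 2-fold between Type I and Type III, and with library totals 1 rather than 0 differed 2-fold between siNT and EPSC. With a biological variation of 0.2 assumed in each library, the 1.5-fold counts were 2 rather than 4 for T09 in EPSC, 4 rather than 7 for T09 in ESC and 3 rather than 5 for Type I over Type III. No ratio that passed changed sign under the alternatives run. Mid1ip1 passed the T09 test without the filter on low counts (log2 1.05) and in DESeq2 (1.06). The counts for the T09 difference between states under other scalings were chosen after seeing the data and stayed at 8. For T09 over all genes, 15 passed in edgeR, with RLE factors and in limma-voom, 46 without the filter and 35 in DESeq2. For the state, 4172 passed in edgeR and 3073 in DESeq2. No paired analysis was possible because each group had 1 library and the labels give no replicate numbers. Leaving out a library from the fit of 4 leaves no residual degree of freedom, so the single pairs are given instead. Depth limits Mlxipl most, with 60 to 477 counts.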

Other observations

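Several genes that act on fatty acid oxidation had widely different levels in the stem cells and the blastoids. Cpt1a, the mitochondrial import step that malonyl-CoA inhibits, was at 3.18 CPM in Type I, 6.87 in Type III and 248 in T09-treated EPSC, with log2 ratios of -6.27 and -5.16 over that library. It was at 33.5 CPM in siNT and 293 in EPSC (-3.12), and for the EPSC state it rose by 0.89 on the log2 scale (edgeR adjusted p 0.000311). Acadl, a dehydrogenase of long-chain fatty acids, was at 57.3 CPM in Type I (2.18), 59.7 in Type III (2.24) and 12.6 in T09-treated EPSC. It was at 32.9 CPM in siNT and 12.7 in EPSC (1.37). Pdk4, the kinase that closes pyruvate dehydrogenase, had 0 counts in Type I, against 33 in Type III and 285 in T09-treated EPSC, at least 12.0-fold and at least 84.2-fold lower. Of the 15 genes of this list 6 were at least 2-fold higher and 3 lower in Type I over T09-treated EPSC, against 22.7% of all genes higher and 18.1% lower. None passed the edgeR test for T09, against 0.104% of all genes. For the state 4 rose, among them Pdk4 (1.14), and 1 fell, Prkaa2 (-1.23), against 14.3% of all genes higher and 14.5% lower. Prkaa2 encodes a catalytic subunit of the kinase AMPK that inhibits acetyl-CoA carboxylase. Acacb, whose product makes the inhibitor of Cpt1a, was also lower in the day 5 blastoids than in T09-treated EPSC.

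The 6 mitochondrial fatty acid synthesis genes in the table, a separate route that makes octanoate for lipoic acid, had 0 members past the edgeR test for T09 (0.104% of all genes) and 0 for the state (28.8% of all genes). Their median log2 change was 0.04 for T09 and 0.32 for the state.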
